A study of Mus musculus with 2 samples.

Results

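The glutathione S-transferases, microsomal glutathione transferases, UDP-glycosyltransferases and cytosolic sulfotransferases are the main enzymes of phase II conjugation. Genes were taken as members when they were protein-coding and their mouse symbol began with Gst and a letter of the alpha, kappa, mu, omega, pi, theta or zeta class, with Mgst, with Ugt or with Sult, followed by a number. The rule used names and no measured value, and it found 67 of the 43346 genes in the tables, namely 22 GST, 3 MGST, 21 UGT and 21 SULT genes. Ugt2a1, which also met the rule by name, was not analysed here.

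Polyadenylated RNA had been sequenced from the lung of a single adult C57BL/6J female at 10 weeks of age, an inbred strain, with no treatment labelled. The 2 libraries are labelled technical replicate 2, dated after the original publication, and technical replicate 1 of the same biological replicate, so there is 1 group, 1 animal and no comparison of conditions. The sources do not say whether the libraries came from the same RNA extraction, and an SD over n = 2 libraries measures technical spread alone. The libraries held 17110882 expected counts in replicate 2 against 16104442 in replicate 1, where an expected count is a number of reads estimated per gene.

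In phase I and phase II metabolism a lipid-soluble chemical is first given a reactive group, often by a cytochrome P450, and then joined to a bulky charged molecule that makes it soluble. Glutathione S-transferases add the tripeptide glutathione to electrophiles, UDP-glucuronosyltransferases add glucuronic acid from UDP-glucuronic acid, and sulfotransferases add sulfate from the donor PAPS. Liver carries out most of this work, and in the mouse lung the club cells of the airways are known for a high content of drug-metabolising enzymes.

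The tissue label was set against marker genes. All 10 listed club cell genes and all 8 listed alveolar type 2 genes reached 1 TPM (transcripts per 1000000, an abundance per length) in both libraries. Among 10 liver genes, Ttr was at 0 in both libraries, and Alb had 1.91 TPM in replicate 2 against 1.44 TPM in replicate 1. The liver genes summed to 6.48 TPM in replicate 2 against 4.15 TPM in replicate 1.

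The libraries stood far apart before any member was considered. A ratio below is the scaled count in replicate 2 over that in replicate 1, and a gene was called when it was over 2-fold apart among the 14139 genes with a mean of at least 1 TPM. By that measure 67.5% of genes were called, 39.3% higher and 28.2% lower in replicate 2, with a median log2 ratio of 0.19. With 1 library on each side no p-value is given for any gene, and the intervals beside ratios are exact Clopper-Pearson intervals at 95% that cover counting error only.

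The lung held these enzymes mainly as glutathione transferases, cytosolic and microsomal. The 67 members summed to 3038 TPM in replicate 2 against 2709 TPM in replicate 1, a mean of 2874 ± 232 TPM (SD, n = 2 libraries), or 0.304% of the whole TPM total in replicate 2 against 0.271% in replicate 1. The order of the sums turned, to 3112 TPM in replicate 2 against 3273 TPM in replicate 1, when mitochondrially encoded genes were left out of the total. The makeup of the sums differed more than their size. Cytosolic GST genes took 68.9% of the members' TPM in replicate 2 against 24.7% in replicate 1, whereas the 3 MGST genes took 26.4% in replicate 2 against 63.8% in replicate 1. SULT genes took 3.69% in replicate 2 against 10.0% in replicate 1. UGT genes took 0.981% in replicate 2 against 1.52% in replicate 1, the smallest share in both libraries. In whole tissue, fewer cells of a type and less RNA per cell cannot be told apart.

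**Figure D1:**
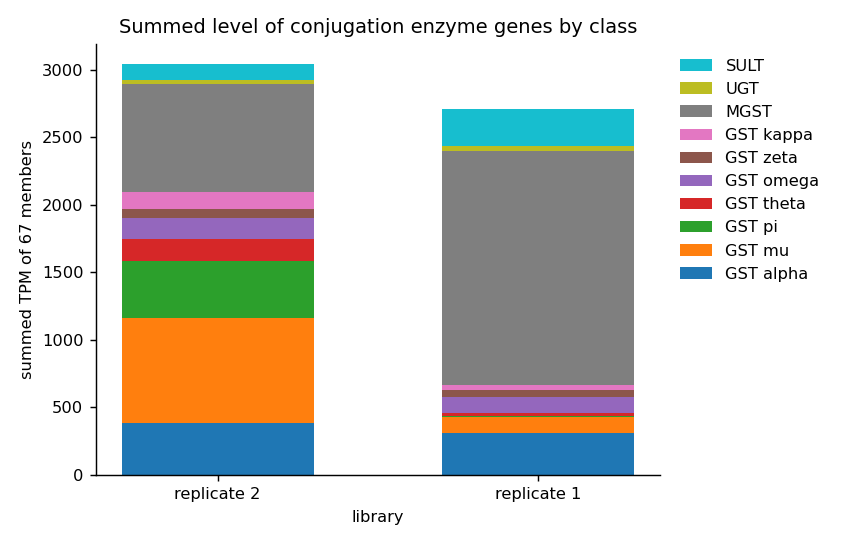
Summed TPM of the 67 members in each library, stacked by enzyme class; the left bar is replicate 2 and the right bar replicate 1. The sum is 3038 TPM in replicate 2 against 2709 TPM in replicate 1, and MGST genes make up 802 TPM in replicate 2 against 1728 TPM in replicate 1.

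A few genes carried most of the sum. Mgst1 alone held 23.3% of the members' TPM in replicate 2 against 63.3% in replicate 1, and it ranked first in both. The 5 highest members held 68.8% in replicate 2, where Gstm1, Gstp1, Gsta3 and Gstm2 followed Mgst1. The 5 highest held 87.0% in replicate 1, where Gsta3, Sult1a1, Gsto1 and Sult1d1 followed it.

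At 1 TPM or more, 30 members were detected in replicate 2 against 26 in replicate 1. Of all 21474 protein-coding genes, 60.6% reached that level in replicate 2 against 52.2% in replicate 1. Detection differed by enzyme class. Of 22 GST genes 20 were detected in replicate 2 against 16 in replicate 1, and of 21 UGT genes 3 were detected in replicate 2 against 4 in replicate 1. SULT genes were likewise sparse, with 4 of 21 in each library. Both libraries detected 24 of the members, replicate 2 detected a further 6, and replicate 1 a further 2, Sult2a1 and Ugt8a.

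The 35 members below 1 TPM in both libraries were mostly UGT and SULT genes, and 17 of them had 0 counts in both. A count of 0 allows up to 3 counts, which is 0.175 CPM (counts per 1000000) in replicate 2 against 0.186 in replicate 1. The highest value among the 35 was that of Ugt1a8, at 0 TPM in replicate 2 against 0.60 TPM in replicate 1. The 9 measured UGT2 genes, which in liver glucuronidate steroids and bile acids, summed to 0.26 TPM in replicate 2 against 0.67 TPM in replicate 1. Of the 8 Sult2a genes, a cluster on chromosome 7, only Sult2a1 reached 1 TPM in a library, and 4 had no count in either. Sult1e1, the oestrogen sulfotransferase, had 1 count in replicate 2 against 3 counts in replicate 1.

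**Figure D2:**
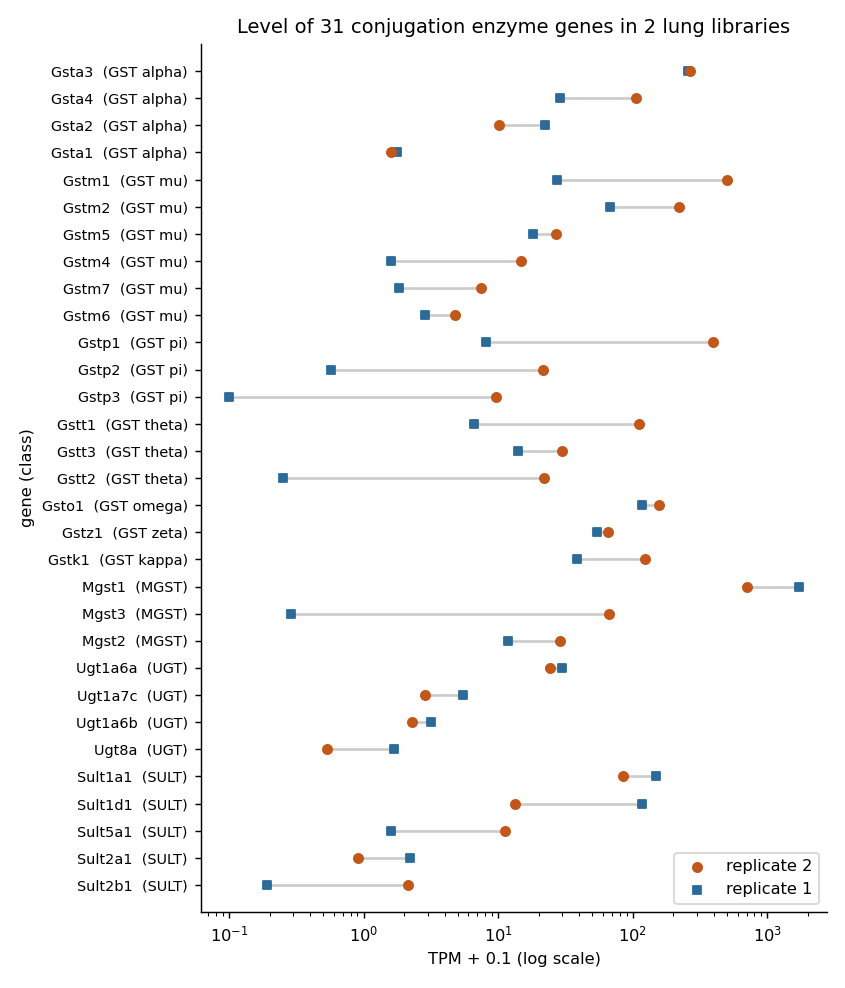
TPM + 0.1 on a log axis for the 31 members with a mean of at least 1 TPM, grouped by class; circles are replicate 2, squares are replicate 1 and grey lines join the values of a gene. Gsta3 nearly coincides, at 265 TPM in replicate 2 against 257 TPM in replicate 1, while Mgst3 lies at 65.9 TPM in replicate 2 against 0.19 TPM in replicate 1.

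The 31 members with a mean of at least 1 TPM were compared between the libraries, and they comprise 19 GST, 3 MGST, 4 UGT and 5 SULT genes. Of these, 16 were over 2-fold higher in replicate 2 (all genes: 39.3%), 3 were over 2-fold lower (all genes: 28.2%) and 12 lay within 2-fold. Their median log2 ratio was 1.24, against 0.19 over all genes tested. Gstp2, Gstp3, Gstt2, Mgst3 and Sult2b1 reached 1 TPM only in replicate 2, and Sult2a1 and Ugt8a only in replicate 1, so these 7 passed the filter through the library where they are high. With no filter on TPM the median was 0.29 over 50 members, against 0.33 over all genes. The classes were unlike each other, with 13 GST genes higher and 0 lower, while SULT genes had 2 higher and 2 lower. Replacing the scaling by total counts, DESeq2 size factors or a ratio of TPM left 15 genes higher and 2 lower under all 4 scalings. The call changed for Gstm5, Mgst1, Gsta2, Gstm6, Mgst2 and Sult2a1, and the sign changed for Gsta3, Gsta1 and Ugt1a6a.

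The alpha class differed little in its total, at 383 TPM in replicate 2 against 309 TPM in replicate 1. Gsta3, which in mouse liver detoxifies the reactive epoxide of aflatoxin (chromosome 1, 21240589 to 21265661, GRCm38), had 265 TPM in replicate 2 against 257 TPM in replicate 1. Its mean was 261 ± 5.93 TPM (SD, n = 2 libraries), and its TPM ratio of 1.03 was the nearest to 1 among the 31 members compared. Its direction is not settled, because the scaled counts were 0.930-fold (0.889 to 0.974) while the TPM was higher in replicate 2.

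Gsta4, whose enzyme prefers the lipid peroxidation product 4-hydroxynonenal, had 106 TPM in replicate 2 against 28.5 TPM in replicate 1, 4.11-fold higher in replicate 2 (3.59 to 4.73). It was the only alpha gene called. Gsta2 had 10.0 TPM from 90 counts in replicate 2 against 22.3 TPM from 87 counts in replicate 1. Gsta1 had 1.49 TPM in replicate 2 against 1.68 TPM in replicate 1. The coding sequences of Gsta1 and Gsta2 are 97.6% identical, and 89.7% of the 50-base windows of the Gsta1 transcript also occur in another annotated gene, so the division of reads between these inducible alpha enzymes is uncertain.

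The mu class, whose enzymes conjugate epoxides and aromatic halides, was the largest GST class in replicate 2 at 774 TPM, against 119 TPM in replicate 1. Its 7 members lie side by side on chromosome 3, and 5 of the 6 tested were over 2-fold higher in replicate 2. Gstm1 (108012255 to 108017973) had 501 TPM from 8663 counts in replicate 2 against 27.1 TPM from 306 counts in replicate 1, 22.2-fold higher (19.8 to 25.0). Gstm2 had 220 TPM in replicate 2 against 67.7 TPM in replicate 1, 4.18-fold higher. Of the windows of Gstm1, 23.1% also occur in other annotated genes, most of them in the pseudogene Gstm2-ps1.

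The other mu genes also had more TPM in replicate 2, by widely different amounts. Gstm4 had 14.7 TPM in replicate 2 against 1.5 TPM in replicate 1, 16.0-fold higher. Gstm7 had 7.38 TPM in replicate 2 against 1.73 TPM in replicate 1. Gstm5 had 26.6 TPM in replicate 2 against 17.9 TPM in replicate 1, 2.67-fold higher by counts but 1.49-fold by TPM. Gstm6, at 4.65 TPM in replicate 2 against 2.75 TPM in replicate 1, lay within 2-fold, and Gstm3 stayed at 0.28 TPM in replicate 2 against 0.08 TPM in replicate 1.

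The pi class showed the widest gap of any GST class as a ratio, at 428 TPM in replicate 2 against 8.49 TPM in replicate 1. Its 3 genes are neighbours on chromosome 19 between positions 4035407 and 4059569, and the enzyme is known for conjugating carcinogens and for binding the stress kinase JNK. The first 120 coding bases of each are shown because no other stretch of that length holds more differences between Gstp1 and Gstp2. They come from the GENCODE M21 transcripts on GRCm38, sense strand, and capitals mark bases unlike Gstp1 at the same position from the coding start.
Gstp1: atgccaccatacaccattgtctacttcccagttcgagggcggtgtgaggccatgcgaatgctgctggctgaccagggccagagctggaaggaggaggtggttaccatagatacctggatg
Gstp2: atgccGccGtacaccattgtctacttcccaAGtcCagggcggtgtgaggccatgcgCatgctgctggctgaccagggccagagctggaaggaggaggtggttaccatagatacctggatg
Gstp3: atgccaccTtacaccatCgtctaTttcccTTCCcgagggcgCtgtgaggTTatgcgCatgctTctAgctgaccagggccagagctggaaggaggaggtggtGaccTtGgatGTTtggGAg

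Gstp1 and Gstp2 match at 618 of 630 coding bases, or 98.1%, while Gstp3 is 72.8% identical to Gstp1. Gstp1 had 397 TPM from 3598 counts in replicate 2 against 8.02 TPM from 52 counts in replicate 1, 54.3-fold higher (41.3 to 72.9). Gstp2 had 21.3 TPM from 197 counts in replicate 2 against 0.47 TPM from 3 counts in replicate 1, a ratio of 51.5 (17.4 to 252). The authors' posterior SD of the count was 13.0 in replicate 2 against 2.85 in replicate 1 for both genes. Gstp3 has no 50-base window in another gene, and it had 79 counts in replicate 2 against 0 in replicate 1. With 0 set to 3 counts per library it was 20.7-fold higher, and its exact interval starts at 16.4.

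All 3 tested theta genes, on chromosome 10, were over 2-fold higher in replicate 2. Gstt1, an enzyme that acts on small halogenated solvents, had 110 TPM in replicate 2 against 6.46 TPM in replicate 1, 17.9-fold higher (13.9 to 23.5). Gstt2 had 21.8 TPM from 408 counts in replicate 2 against 0.15 TPM from 2 counts in replicate 1, a ratio of 160 (44.0 to 1326). Gstt3 had 29.7 TPM in replicate 2 against 14.0 TPM in replicate 1, 2.37-fold higher. Gstt2 and Gstt3 thus had similar levels in replicate 2, while in replicate 1 Gstt3 had 259 counts and Gstt2 had 2. Of the 50-base windows of the Gstt3 transcript, 26% also occur in another annotated gene, so its count may be shared. The authors' posterior SD of its count was small, at 1.68 in replicate 2 against 0 in replicate 1. Gstt4 had 0 counts in replicate 2 against 1 count in replicate 1.

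The omega, zeta and kappa enzymes act largely outside drug conjugation. Gsto1, which reduces dehydroascorbate and mixed disulfides, had 156 TPM in replicate 2 against 118 TPM in replicate 1, and was the fourth highest member in replicate 1. Gstz1, the maleylacetoacetate isomerase of tyrosine breakdown, had 65.1 TPM in replicate 2 against 54.4 TPM in replicate 1. Both lay within 2-fold. Gstk1, a mitochondrial and peroxisomal enzyme, had 124 TPM in replicate 2 against 38.3 TPM in replicate 1, 3.56-fold higher. Gsto2 had 1.36 TPM in replicate 2 against 0.35 TPM in replicate 1.

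The 3 microsomal glutathione transferases belong to the MAPEG family of membrane proteins and are unrelated in fold to the cytosolic enzymes. Mgst1, which conjugates glutathione and reduces lipid hydroperoxides (chromosome 6, 138140316 to 138156755), had 708 TPM from 7809 counts in replicate 2 against 1716 TPM from 11360 counts in replicate 1. It was the highest member in each library, with a mean of 1212 ± 713 TPM (SD, n = 2 libraries). Its count ratio of 0.539 (0.524 to 0.555) lay within 2-fold, whereas its ratio of TPM was 0.412.

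Mgst3 (chromosome 1, 167371966 to 167393841) had the highest ratio of the 31 members compared. It had 65.9 TPM from 950 counts in replicate 2 against 0.19 TPM from 2 counts in replicate 1, a ratio of 373 (103 to 3082). Mgst2, which can make leukotriene C4, had 28.7 TPM in replicate 2 against 11.7 TPM in replicate 1, a count ratio of 1.73. Of the 3 genes of the family, Mgst3 was thus the one called.

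Glucuronidation was represented by the UGT1A cluster on chromosome 1, whose members join their own first exon to a common set of later exons. Of 9 UGT1A genes, 3 reached 1 TPM, and none of the 3 was called. Ugt1a6a, an enzyme for small phenols (88134809 to 88218997), had 24.02 TPM in replicate 2 against 29.8 TPM in replicate 1. Ugt1a7c had 2.75 TPM in replicate 2 against 5.34 TPM in replicate 1. Ugt1a6b had 2.20 TPM in replicate 2 against 3.06 TPM in replicate 1.

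The coding bases around the junction are shown because the common stretch gives the same reads for all 3 genes. They are bases 817 to 896 from the coding start, from the same transcript set and strand, with lower case for the stretch that all 3 share and capitals for the bases before it.
Ugt1a6a: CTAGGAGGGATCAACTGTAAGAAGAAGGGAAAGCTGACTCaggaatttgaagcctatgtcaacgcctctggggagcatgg
Ugt1a6b: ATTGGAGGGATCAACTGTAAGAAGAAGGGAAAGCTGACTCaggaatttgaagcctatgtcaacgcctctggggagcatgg
Ugt1a7c: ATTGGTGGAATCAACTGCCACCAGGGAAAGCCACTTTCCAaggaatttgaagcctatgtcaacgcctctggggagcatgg

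The last 737 of 1593 coding bases are the same in these 3 genes, and Ugt1a6a and Ugt1a6b are 98.4% identical over the whole coding sequence. All of the 50-base windows of the Ugt1a6a transcript (100%), 80.7% of those of Ugt1a6b and 40.9% of those of Ugt1a7c also occur in transcripts of other annotated genes, so the division of reads between these genes is uncertain. The authors' posterior SD of the count was 20.95 in replicate 2 against 27.3 in replicate 1 for Ugt1a6a, which had 804 counts in replicate 2 against 700 in replicate 1. For Ugt1a6b it was 16.7 in replicate 2 against 19.2 in replicate 1, beside 74 counts in replicate 2 against 73 in replicate 1. Ugt8a, which adds galactose to ceramide in myelin-forming cells, had 0.43 TPM in replicate 2 against 1.58 TPM in replicate 1, 3.32-fold lower (2.03 to 5.63).

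Most of the SULT total came from 2 genes. Sult1a1, the phenol sulfotransferase, had 83.9 TPM in replicate 2 against 149 TPM in replicate 1, a count ratio of 0.613 that lay within 2-fold. Sult1d1, a mouse sulfotransferase for catecholamines (chromosome 5, 87554645 to 87569027), had 13.3 TPM from 469 counts in replicate 2 against 118 TPM from 2219 counts in replicate 1, 6.03-fold lower (5.46 to 6.67). It had the lowest ratio of the 31 members compared.

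The remaining SULT genes were low and went both ways. Sult5a1 had 11.2 TPM in replicate 2 against 1.51 TPM in replicate 1, 8.30-fold higher. Sult2b1, which sulfates cholesterol, had 33 counts in replicate 2 against 1 count in replicate 1, or 2.04 TPM and 0.09 TPM. Sult2a1, a hydroxysteroid sulfotransferase, had 0.81 TPM in replicate 2 against 2.11 TPM in replicate 1, and it lay within 2-fold when the libraries were scaled by total counts. Its windows were shared to 33.2%, mostly with Sult2a2. The authors' posterior SD of its count was 0.64 in replicate 2 against 0.41 in replicate 1, beside 11 and 20 counts.

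**Figure D3:**
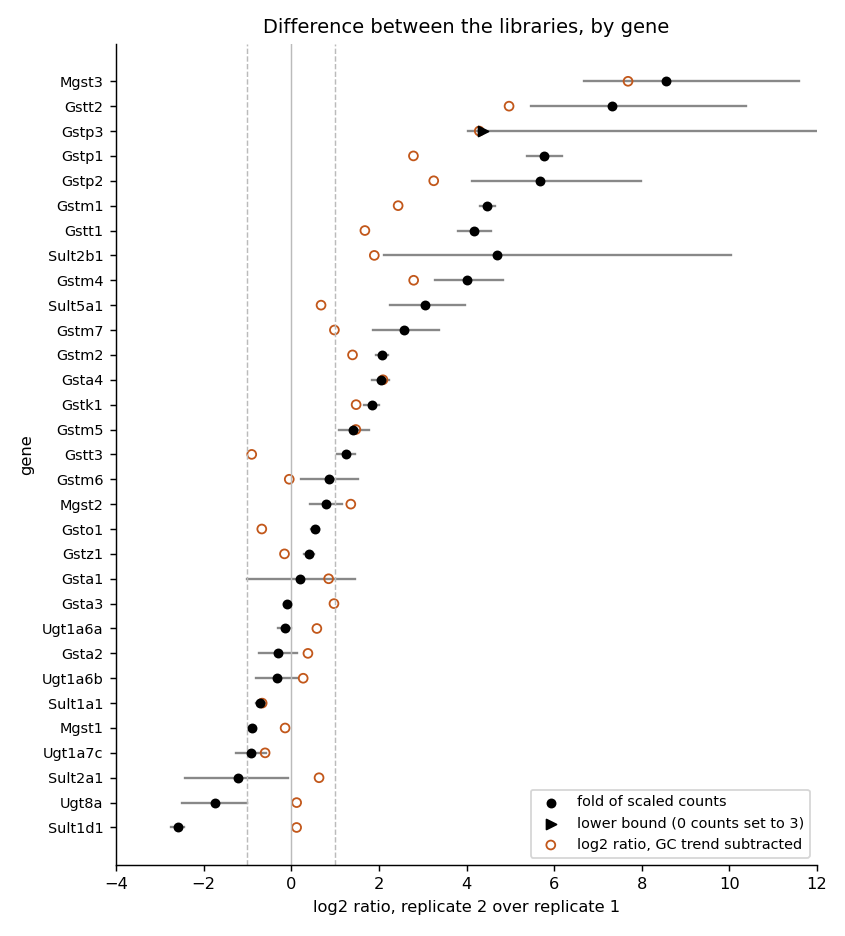
Log2 ratio of replicate 2 over replicate 1 for the 31 members compared. Filled points are the fold of scaled counts with exact 95% counting intervals. Gstp3, marked as a lower bound, is drawn with 0 set to 3 counts, and its interval starts lower, at 16.4-fold. Open circles are the log2 ratio with the trend on GC content subtracted, and dashed lines mark 2-fold. The filled points run from Sult1d1, 6.03-fold lower, to Mgst3, 373-fold higher, and most open circles lie nearer 0.

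The size and direction of the ratio went with the base composition of the transcripts. GC content below is the mean over a gene's annotated transcripts. The 3 members below 45% GC, Sult1d1, Ugt8a and Sult2a1, were the 3 that were over 2-fold lower in replicate 2. Of the 11 members between 45% and 50%, 2 were higher and 0 lower. Of the 17 members at 50% or more, 14 were higher and 0 lower, and the median log2 ratios of these classes were -1.71, -0.15 and 3.96. Ugt8a and Sult2a1 passed the TPM filter only through replicate 1. Gstp2, Gstp3, Gstt2, Mgst3 and Sult2b1, all at 50% or more, passed it only through replicate 2. The split by GC content thus draws partly on genes that were selected by the library where they are high.

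Across the 31 members GC content and log2 ratio had Pearson's r = 0.756 and Spearman's rho = 0.836, beside 0.765 and 0.820 across 14067 genes tested. These describe genes that share the same libraries and are not independent replicates, and the members had the direction of the whole table. As examples, the most GC-rich 120 coding bases of 4 members, chosen after their ratios were seen, are given in order of rising GC content, with G and C in capitals and the same source and strand as above.
Sult1d1: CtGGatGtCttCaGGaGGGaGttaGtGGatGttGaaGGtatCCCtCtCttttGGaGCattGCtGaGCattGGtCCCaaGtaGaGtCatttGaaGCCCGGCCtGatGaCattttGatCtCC
Mgst1: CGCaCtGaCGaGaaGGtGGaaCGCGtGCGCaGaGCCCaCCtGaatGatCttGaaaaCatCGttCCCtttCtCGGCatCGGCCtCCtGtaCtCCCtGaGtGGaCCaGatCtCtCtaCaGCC
Gstm1: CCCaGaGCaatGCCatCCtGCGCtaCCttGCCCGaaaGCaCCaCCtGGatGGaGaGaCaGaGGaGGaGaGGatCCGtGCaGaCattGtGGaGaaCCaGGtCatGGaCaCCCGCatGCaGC
Mgst3: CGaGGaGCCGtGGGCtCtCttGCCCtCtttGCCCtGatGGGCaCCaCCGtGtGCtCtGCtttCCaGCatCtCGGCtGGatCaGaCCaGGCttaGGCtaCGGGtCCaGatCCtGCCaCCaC

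These stretches hold 48.3% GC in Sult1d1, 56.7% in Mgst1, 59.2% in Gstm1 and 62.5% in Mgst3. Other members do not keep the order of these 4: the richest stretch holds 69.2% in Gsto1, with a log2 ratio of 0.54, and 64.2% in Ugt1a7c, with -0.92. Over the whole coding sequence the same genes have 39.3%, 50.5%, 51.8% and 56.0% GC. When the trend of all genes on GC content was subtracted, 14 members were over 2-fold higher, 0 lower and 17 within, beside 22.6% of all genes higher and 20.5% lower. The median of the members was then 0.97, against -0.02 over all genes. Among the 14 are Gstp2, Gstp3, Gstt2, Mgst3 and Sult2b1, which passed the TPM filter only through replicate 2, where they are high. The subtraction was not made without that filter, so the part of selection in the difference from all genes was not tested. Of the 16 genes higher before, 13 were so afterwards, without Sult5a1, Gstt3 and Gstm7, and Mgst2 was added. The 3 genes that had been lower moved to between 0.12 and 0.63 on the log2 scale. Mgst3 remained far above the trend at 7.69, and its GC content of 50.9% was close to the median of 50.4% over all genes. Gstt2 was at 4.97, and both Gstt2 and Mgst3 had only 2 counts in replicate 1. Gstp3 was at 4.29, but with 0 counts in replicate 1 that value rests on the prior of 0.5 counts. With 0 set to 3 counts, the log2 ratio of Gstp3 before subtraction fell from 6.96 to 4.16, so its place in the order is not settled.

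**Figure D4:**
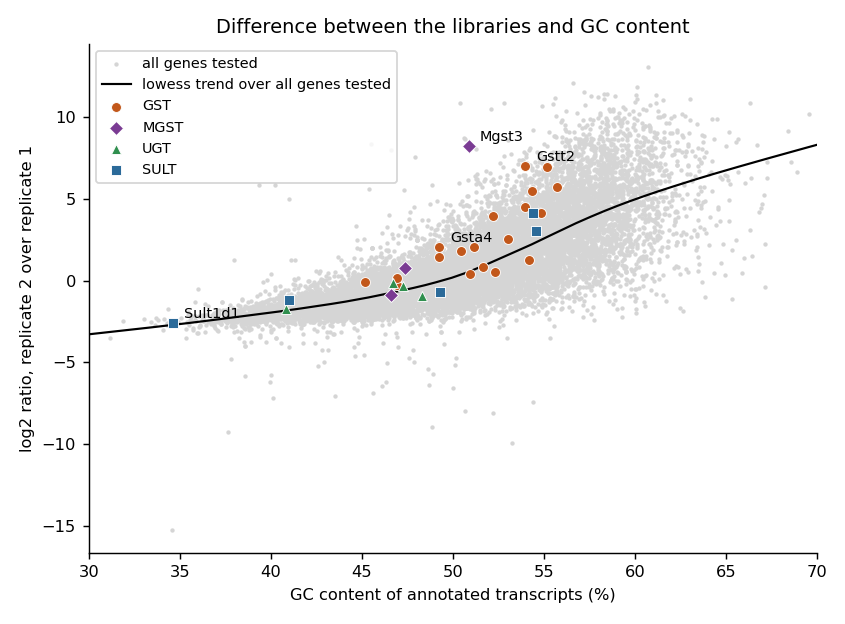
Log2 ratio of replicate 2 over replicate 1 against the GC content of annotated transcripts (%), for all genes tested (grey), the 31 members by class (coloured) and a lowess trend over all genes (black). The members run from Sult1d1 at 34.7% GC to Gstp1 at 55.7% GC, and 14 of them lie over 2-fold above the trend and 0 over 2-fold below it. Of the 14, Gstp2, Gstp3, Gstt2, Mgst3 and Sult2b1 passed the TPM filter only through replicate 2.

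The transcript estimates differed as well as the gene totals. Of the 31 members, 9 have a single annotated transcript in the tables and for another 9 the transcript with the largest share was not the same in both libraries; 8 of those had a mean of at least 5 TPM. In Mgst1, the full-length transcript Mgst1-201 took 50.6% of the gene's TPM in replicate 2 against 6.66% in replicate 1. Mgst1-207, a shorter transcript of 742 bases with 41.6% GC, took 7.07% in replicate 2 against 93.2% in replicate 1. Mgst1-204, of 559 bases with 51.3% GC, took 40.8% in replicate 2 against 0% in replicate 1. The form of Mgst1 that led in replicate 1 was a minor form in replicate 2.

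Gsta3 had nearly the same TPM in both libraries with different main transcripts. Gsta3-201 took 46.6% in replicate 2 against 86.1% in replicate 1, and Gsta3-202 took 46.7% in replicate 2 against 3.02% in replicate 1. For Gstm2, Gstm2-201 took 98.7% in replicate 2 against 38.6% in replicate 1, where Gstm2-202 led with 59.4%. For Ugt1a6a, Ugt1a6a-202 took 94.6% in replicate 2 against 16.6% in replicate 1. The remaining changes were in Gstm5, Gsta2, Gstm4, Sult5a1 and, below 5 TPM, Gsta1. Gstm5-201 took 100% of Gstm5 in replicate 2 against 0% in replicate 1. Gsta2-201 took 60.2% of Gsta2 in replicate 2 against 10.5% in replicate 1, and Gstm4-201 took 62.7% of Gstm4 in replicate 2 against 0% in replicate 1. The main transcript of Sult5a1 in replicate 1, Sult5a1-202 at 88.1%, is annotated as a target of nonsense-mediated decay and had 0% in replicate 2. Gsta1-202, a retained intron, took 0% of Gsta1 in replicate 2 against 54.2% in replicate 1.

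**Figure D5:**
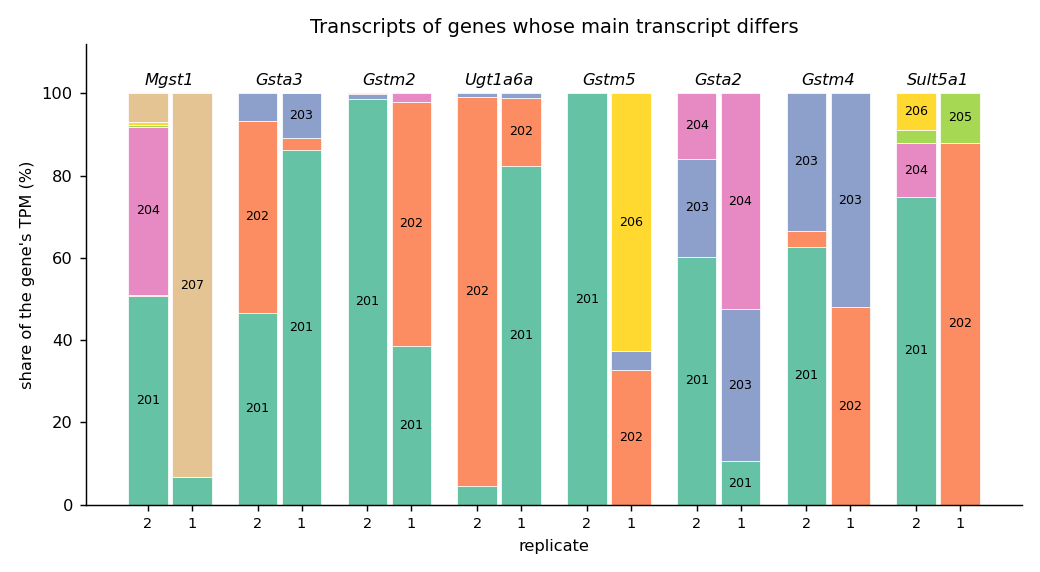
Share of each gene's TPM (%) by annotated transcript, in replicate 2 (left bar) and replicate 1 (right bar), for the 8 members with a mean of at least 5 TPM whose main transcript differs; numbers name the transcript. For Mgst1, the transcript Mgst1-207 fills 7.07% of the left bar and 93.2% of the right bar.

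Genes that supply or remove conjugates, other related enzymes and proteins, and regulators were measured from 7 lists. Their counts are read beside 39.3% of all genes higher and 28.2% lower. Among genes of glutathione synthesis and breakdown 6 of 11 tested were over 2-fold higher in replicate 2 and 4 were lower, with a median log2 ratio of 2.14 that turned to -0.45 with the GC trend subtracted. Dpep1, a dipeptidase that cleaves glutathione products, had 116 TPM in replicate 2 against 26.8 TPM in replicate 1. Gclc, the catalytic subunit of the rate-limiting enzyme of glutathione synthesis, had 35.0 TPM in replicate 2 against 79.8 TPM in replicate 1. Gclm, its modifier subunit, had 23.9 TPM in replicate 2 against 52.4 TPM in replicate 1. Both subunits were over 2-fold lower in replicate 2, opposite to 13 of the 19 GST genes. Gsr, glutathione reductase, had 29.0 TPM in replicate 2 against 53.2 TPM in replicate 1 and lay within 2-fold.

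The genes of UDP-glucuronic acid supply and glucuronide removal had 0 of 6 tested higher and 3 lower. Their median log2 ratio was -1.05, and -0.16 with the GC trend subtracted. Ugp2, which makes UDP-glucose, had 66.1 TPM in replicate 2 against 308 TPM in replicate 1. Ugdh, which oxidises it to UDP-glucuronic acid, had 21.7 TPM in replicate 2 against 97.3 TPM in replicate 1. Slc35a3, a Golgi nucleotide sugar transporter, had 8.93 TPM in replicate 2 against 39.3 TPM in replicate 1. These 3 were the ones called lower, while Gusb, the lysosomal glucuronidase, had 30.4 TPM in replicate 2 against 17.5 TPM in replicate 1. With the GC trend subtracted, Ugp2 was at 0.07, Ugdh at -0.59 and Slc35a3 at -0.97 on the log2 scale, all within 2-fold.

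For PAPS supply and sulfate removal, 3 of 11 tested genes were higher and 5 lower, with a median of -0.74. It was -1.05 with the GC trend subtracted. Sumf1, which activates sulfatases, had 26.3 TPM in replicate 2 against 62.9 TPM in replicate 1. Impad1, a Golgi phosphatase, had 12.7 TPM in replicate 2 against 63.6 TPM in replicate 1, and Bpnt1, its cytosolic relative, had 23.1 TPM in replicate 2 against 52.2 TPM in replicate 1. Papss1, a PAPS synthase, was nearly level at 23.6 TPM in replicate 2 against 22.6 TPM in replicate 1. The other synthase, Papss2, was lower in replicate 2, at 6.98 TPM, than in replicate 1, at 23.2 TPM.

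Exporters of conjugates were low and mostly within 2-fold, with 1 of 7 tested higher and 1 lower. Their median log2 ratio was -0.38, and -0.03 with the GC trend subtracted. Abcg2, an exporter of sulfated compounds among others, had 14.6 TPM in replicate 2 against 30.97 TPM in replicate 1, and was the gene called lower. Abcc3, a carrier of glucuronides and the gene called higher, had 19.8 TPM in replicate 2 against 2.26 TPM in replicate 1. With the GC trend subtracted, Abcg2 was at 0.50 and Abcc3 at -0.08 on the log2 scale, both within 2-fold. Abcc5, which exports cyclic nucleotides, had 26.3 TPM in replicate 2 against 13.5 TPM in replicate 1. Abcb1a, a P-glycoprotein that pumps out unconjugated drugs, had 11.8 TPM in replicate 2 against 16.9 TPM in replicate 1. Abcc2, the canalicular exporter of liver, stayed at 0.03 TPM in replicate 2 against 0.15 TPM in replicate 1.

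The list of other conjugation enzymes, which also holds epoxide hydrolases, had 6 of 12 tested higher and 4 lower. Its median log2 ratio was 0.73, and 0.17 with the GC trend subtracted. The list was led by Inmt, an indole and thioether methyltransferase abundant in lung, with 3674 TPM in replicate 2 against 1169 TPM in replicate 1, more than all 67 members together in replicate 2. Ephx1, microsomal epoxide hydrolase, had 132 TPM in replicate 2 against 37.2 TPM in replicate 1. Hnmt, the histamine methyltransferase, ran the other way, with 20.7 TPM in replicate 2 against 109 TPM in replicate 1. With the GC trend subtracted, Inmt was at -0.18 and Hnmt at 0.006 on the log2 scale, both within 2-fold. Ephx1 was then at 1.55.

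Other genes with a glutathione transferase fold or of the MAPEG family had 9 of 14 tested higher and 3 lower. Their median was 3.0, and 1.28 with the GC trend subtracted. Clic4 and Clic5 are chloride channel proteins with that fold. Clic4 had 175 TPM in replicate 2 against 374 TPM in replicate 1, within 2-fold by counts, and Clic5, over 2-fold lower, had 123 TPM in replicate 2 against 335 TPM in replicate 1. Eef1g, an elongation factor subunit, had 279 TPM in replicate 2 against 33.1 TPM in replicate 1. Alox5ap, the MAPEG protein that presents arachidonic acid for leukotriene synthesis, had 450 TPM in replicate 2 against 4.38 TPM in replicate 1. Its 926 counts in replicate 2 against 33 in replicate 1 give a ratio of 22.02 (15.6 to 32.2), and the deposited length of the gene, a mean over its transcripts, was 265 bases in replicate 2 against 852 in replicate 1.

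Of the regulators and their targets, 8 of 16 tested were higher and 4 lower, with a median of 0.94 that turned to -0.85 with the GC trend subtracted. Nfe2l2, which encodes NRF2, an activator of many GST genes, had 77.9 TPM in replicate 2 against 238 TPM in replicate 1. Ahr, the aryl hydrocarbon receptor, had 12.1 TPM in replicate 2 against 53.5 TPM in replicate 1. Bach1, a repressor at NRF2 sites, had 10.9 TPM in replicate 2 against 48.0 TPM in replicate 1. These 3 regulators were all over 2-fold lower in replicate 2. With the GC trend subtracted, Nfe2l2 was at -0.35 on the log2 scale, within 2-fold, while Ahr was at -1.28 and Bach1 at -1.57. Txnrd1, an NRF2 target, had 23.3 TPM in replicate 2 against 30.98 TPM in replicate 1. The liver regulators Nr1i2, Nr1i3 and Hnf4a were below 1 TPM in both libraries.

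Markers of lung epithelial cells also differed. The club cell list came to 187270 TPM in replicate 2 against 26071 TPM in replicate 1, with 3 over 2-fold higher, 4 lower and 3 within. Scgb1a1 alone held 174257 TPM of it in replicate 2 against 17498 TPM in replicate 1. Scgb1a1 and Cbr2 were higher, whereas Aldh1a1, a detoxifying aldehyde dehydrogenase, had 732 TPM in replicate 2 against 1785 TPM in replicate 1. The 8 alveolar type 2 genes came to 49275 TPM in replicate 2 against 6204 TPM in replicate 1, with 5 higher and 2 lower. Their median was 4.06, and 1.61 with the GC trend subtracted. None of these genes was at 0 in either library. The part of cell content in the differences between members was not tested.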

How the data were processed

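Lung RNA of 1 mouse was analysed in 2 libraries of 1 group. Gene and transcript tables use mouse assembly mm10 and annotation M4, per the labels and the deposited descriptions. Which aligner and quantifier made them is not given in the sources used here. Per the file headers, expected counts are reads per gene or transcript estimated by the authors, who also deposited TPM and FPKM values, the percent of a gene's abundance per transcript, and lengths. Posterior mean TPM values and the posterior SD of each count, a score in count units, were also deposited by the authors. Symbols, positions and sequences came from GENCODE M21 on GRCm38, matched by gene identifier without version for 42462 of 43346 genes.

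Expected counts were rounded (17110871 in replicate 2 and 16104423 in replicate 1) and scaled with TMM factors of edgeR 4.0.16 (1.10 and 0.913) in R 4.3.3. Log2 ratios used a prior of 0.5 counts and genes with a mean of at least 1 TPM. A lowess curve with span 0.3 gave the trend on GC content. The ratio procedure was tested on simulated counts in which most genes were unchanged and no GC trend was set. These data differ from that setting, so the simulation does not show how well the scaling works here. Reads are not independent molecules, so intervals cover counting error only. For sequences, the transcript of highest mean TPM was used among those with a complete coding sequence of at least 60% of the gene's longest. Alternatives used DESeq2 1.42.0 size factors, total counts, ratios of TPM, other filters and priors. Python 3.11.15, statsmodels 0.14.6, scipy 1.17.1 and biopython 1.88 were used. The members, lists and alternatives were chosen with earlier results of these data known. Members were named at a mean of at least 1 TPM, and from each pathway list the 4 genes of highest mean TPM. Low members and Papss2, Abcc2 and the liver regulators were named in addition, after their values were seen. A gene that this rule would name is not reported here. Sts was listed but not matched.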

Additional observations from a re-analysis of the deposited data

How the results depend on the processing

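The only spread that can be measured here is that between the libraries, and 1 animal gives none between animals. The median log2 ratio of the members, 1.24, was 1.51 with scaling by total counts, 1.08 as a ratio of TPM, 0.29 with no filter on TPM (50 members; 0.33 over all genes), 0.97 with the GC trend subtracted and 1.93 without the 11 members that share over 10% of their 50-base windows with another gene, an alternative chosen after seeing the data. The number of members over 2-fold lower, 3, was 5 as a ratio of TPM (all genes: 31.6%), which adds Mgst1 and Gsta2. It was 16 of 50 with no filter on TPM (all genes: 28.4%). At a mean of at least 10 TPM it was 1 of 20 (all genes: 34.2%). With the GC trend subtracted it was 0 (all genes: 20.5%). Of 77 tested genes in the pathway lists 33 were over 2-fold higher (all genes: 39.3%), and 16 with the GC trend subtracted (all genes: 22.6%). Both counts lie near the shares over all genes. Leaving out the mitochondrially encoded genes moved the mean summed TPM to 3193, with 3112 in replicate 2 and 3273 in replicate 1, so the order of the libraries turned. Scaling moved the median of all genes, 0.19, to 0.45 by total counts and 0.01 by TPM. The number of members higher, 16, ran between 11 and 21 under the alternatives. The 11 were of 20 at a mean of at least 10 TPM (all genes: 34.0%). The 21 were of 50 with no filter on TPM, a share near that of all genes (41.6%). The number detected, 31, ran between 22 and 32. Leaving out a library left 26 to 30 members detected and a sum of 2709 to 3038 TPM, and no ratio can be had from a single library. No paired analysis was possible because the libraries form a single group. Causes of these shifts were not tested.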

Other observations

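The authors' posterior mean TPM gave a level to genes that the usual estimate left at 0. Ugt3a1, a UGT gene with 0 counts in replicate 2 against 1 count in replicate 1, had a posterior mean of 1.00 TPM in replicate 2 against 1.40 TPM in replicate 1, beside usual estimates of 0 and 0.04 TPM. Ugt1a10, with 0 counts in both libraries, had a posterior mean of 0.46 TPM in replicate 2 against 1.15 TPM in replicate 1, and the posterior SD of its count was 3.41 in replicate 2 against 15.2 in replicate 1. Gstp3, at 0 counts in replicate 1, had a posterior mean of 0.32 TPM there. These genes were chosen after their values were seen.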
